A study of Mus musculus with 12 samples.

Results

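The genes described here are 114 mouse zinc finger genes that growing oocytes express. They are the genes whose symbol is Zfp followed by a number and whose mean in the 2 WT growing libraries was at least 5 FPKM, a read number scaled to transcript length and library size. Of the 23230 genes in the table, 340 carry such a symbol, and 115 of these reached the threshold. Zfp57, the imprint-protecting factor, was left out by name, as was Zfp36, which lay below the threshold. All 114 genes also passed the filter on low values, which 11502 genes of the table passed. The genes were chosen by their values in the WT growing libraries, so their levels in those libraries, and any contrast with them, are given as a description without a test. A coding sequence was found in the mm9 annotation for 113 of them. Among these 113, 5 genes (Zfp259, Zfp330, Zfp750, Zfp839 and Zfp957) held no match to the classical C2H2 finger. The incomplete coding sequence of Zfp616, which is classed by another domain below, held none either.

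Oocytes were taken from WT mice and from mice that lack both Zar1 and Zar2, which encode RNA-binding proteins of the oocyte. All mice were of a C57BL6/ICR hybrid background. Both alleles were made with CRISPR/Cas9, Zar2 carrying a frame-shifting deletion in its first exon and Zar1 a short deletion followed by an early stop codon, and WT mice carried neither. In each genotype the stages compared were growing oocytes, fully grown oocytes with a germinal vesicle (GV) and ovulated oocytes at metaphase II (MII). The labels give an age of 13.5 days for the females that provided growing oocytes, while the methods of the study state a younger age. GV oocytes came from 21-day-old females 44 h after PMSG, a hormone that makes follicles grow. MII oocytes were collected 16 h after hCG, the hormone that triggers ovulation. Each of the 6 groups had 2 libraries of 10 pooled oocytes, made by Smart-seq2, and the sources used here do not say whether the 2 pools came from different females, so the p-values measure the spread between these libraries. Many Zar1/2-null oocytes collected after ovulation had been described by the study as arrested before MII, so the name MII marks the time of collection in that genotype. A lower level in every oocyte of a pool and a loss from some of its oocytes cannot be told apart. The study reports that poly(A) tails of certain maternal mRNAs lengthen during maturation and fail to do so in the null oocytes. Whether tail length affected the capture of mRNA in these libraries was not tested. Differences between stages, or between genotypes at MII, are therefore differences in FPKM.

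C2H2 zinc finger proteins hold a zinc ion in each finger with a pair of cysteines and a pair of histidines, and rows of fingers read DNA bases. The largest group in mammals also carries a KRAB box, which recruits the corepressor Trim28 and, through it, histone methylation by Setdb1 and silencing of transposable elements. In oocytes and early embryos such proteins keep retroelements silent and keep imprints through reprogramming, and a growing oocyte stores the mRNAs that it will use or destroy after it resumes meiosis.

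By the coding sequences of the mm9 annotation (GENCODE M1), 62 of the 114 genes (54.4%) encoded a KRAB box, against 52.2% of the 226 other Zfp genes. Zfp449 carried a SCAN box, a dimerisation domain, without KRAB, 45 had C2H2 fingers with neither box, and Zfp383 had no coding sequence in the annotation. Proteins with a KRAB box held between 0 and 23 fingers with a median of 12, and the 45 others between 1 and 25 with a median of 5. A count of 0 came from an incomplete coding sequence (Zfp616). Of 1085 fingers found, 465 (42.9%) were followed by the linker that is typical of the family. One finger is shown from each of 4 genes that carry the results: Zfp709 and Zfp472, which were low without Zar1 and Zar2, Zfp655, the most abundant, and Zfp672, which was high in Zar1/2-null MII oocytes. The codons in capitals are those of the zinc-binding cysteines and histidines, and each stretch of 84 bases, given 5′ to 3′ on the coding strand, ends with the linker to the next finger. They lie in the last exon of each gene, at chr8:74413390-74413473 (plus strand, exon 3) for Zfp709, chr17:33114576-33114659 (plus strand, exon 4) for Zfp472, chr5:146004935-146005018 (plus strand, exon 4) for Zfp655 and chr11:58130219-58130302 (minus strand, exon 3) for Zfp672, all in mm9.
Zfp709 finger: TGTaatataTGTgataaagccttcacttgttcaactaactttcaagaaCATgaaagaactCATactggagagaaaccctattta
Zfp472 finger: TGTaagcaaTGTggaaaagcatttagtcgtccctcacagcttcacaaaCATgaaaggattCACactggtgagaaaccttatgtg
Zfp655 finger: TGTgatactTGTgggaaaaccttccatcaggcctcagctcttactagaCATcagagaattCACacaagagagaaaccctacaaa
Zfp672 finger: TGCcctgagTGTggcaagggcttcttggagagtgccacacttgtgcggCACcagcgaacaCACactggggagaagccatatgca

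The KRAB box is shown for Zfp709, Zfp472 and Zfp932, the most abundant gene with this box. Capitals mark the codons that match the residues common to the family, 19 of the 22 positions scored in Zfp709, 21 in Zfp472 and 19 in Zfp932. The stretches of 90 bases lie at chr8:74411169-74411258 in exon 1 of Zfp709, at chr17:33112865-33112954 in exon 2 of Zfp472 and at chr5:110435969-110436058 in exon 2 of Zfp932, all on the plus strand of mm9.
Zfp709 KRAB box: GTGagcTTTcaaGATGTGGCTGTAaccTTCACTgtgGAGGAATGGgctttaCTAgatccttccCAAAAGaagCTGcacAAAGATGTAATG
Zfp472 KRAB box: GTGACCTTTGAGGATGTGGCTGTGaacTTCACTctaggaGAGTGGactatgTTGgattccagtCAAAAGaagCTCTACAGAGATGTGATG
Zfp932 KRAB box: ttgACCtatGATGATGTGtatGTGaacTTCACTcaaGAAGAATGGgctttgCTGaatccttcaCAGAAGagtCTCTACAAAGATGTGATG

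The 114 genes were not spread evenly over the genome. Of the 111 with a single place in the annotation, 24 lay on chromosome 7, 17 on chromosome 17 and 12 on chromosome 8, and 42 lay in 15 runs with fewer than 5 other genes between neighbours. The longest run held 6 genes with a KRAB box (Zfp229, Zfp942, Zfp943, Zfp944, Zfp758 and Zfp946) between 21870691 and 22593656 of chromosome 17 in mm9. Such families hold near copies that share reads. Of the 113 coding sequences, 74 shared no stretch of 50 bases, the length to which the reads had been trimmed, with another coding gene. In 11 genes more than 10% of the stretches were shared. The values of Zfp960 and Zfp97, which shared 81.0% and 77.6% with each other, of Zfp963 (80.8%, with Gm20422) and of Zfp932 (55.4%, mostly with Gm15446) are uncertain for this reason.

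The values rest on how the authors scaled them. Every lysate had received the same amount of ERCC spike-in RNA, and each library had been multiplied by a factor taken from its share of spike-in reads. The factors recovered from the table were 1 in the WT growing libraries, 0.836 and 0.697 in WT GV, 0.225 and 0.228 in WT MII, 0.862 and 0.779 in Zar1/2-null growing, 0.533 and 0.583 in Zar1/2-null GV and 0.283 and 0.252 in Zar1/2-null MII oocytes. Both WT growing libraries had a factor of 1, although the study lists different spike-in shares for them. Each replicate number may therefore have its own spike-in reference, which was not tested. Zar1l, the symbol of Zar2, was at 639 and 644 FPKM in WT and 17.5 and 13.2 FPKM in Zar1/2-null growing oocytes. Zar1 mRNA was at 603 and 725 against 407 and 460 FPKM. All 11 oocyte markers examined had at least 1 FPKM in 5 of the 6 groups and 10 of them in WT MII oocytes. Granulosa and cumulus cell markers summed to between 4.19 and 26.2 FPKM in a library, with Ptx3 listed at 0 in every library and Amh in all but the Zar1/2-null GV group. Much of each sum came from 1 gene, Cyp19a1, at 2.53 to 19.0 FPKM in a library. The table holds no counts, so the counting error of a value is unknown.

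In WT growing oocytes the 114 genes ranged from 5.12 to 232 FPKM with a median of 14.0, against a median of 8.74 over all 11502 genes kept. There were 14 at 50 FPKM or more and 46 under 10, and the 5 most abundant made up 29.3% of their sum. Zfp655, whose protein was described as a partner of the signalling protein Vav1, had 236 and 228 FPKM. Zfp277, which links the Polycomb protein Bmi1 to its target genes, had 188 and 169 FPKM. Zfp296, a factor of pluripotent cells, had 155 and 196 FPKM. Zfp207, with 180 and 166 FPKM, encodes BuGZ, which binds spindle microtubules and the checkpoint protein Bub3. Both libraries of Zfp655 lay above those of the other 3, whose libraries overlapped, so the order among Zfp277, Zfp296 and Zfp207 is not resolved. Zfp932, which represses endogenous retroviruses, had 172 and 141 FPKM and overlapped with Zfp207. At the threshold, the lowest members were Zfp46 (5.12 and 5.12 FPKM), Zfp53 (6.01 and 4.64) and Zfp688 (5.04 and 5.80), and the Zfp genes just under it were Zfp192 (4.78 and 5.19), Zfp770 (5.75 and 4.19) and Zfp568 (5.06 and 4.49), a repressor of a placental Igf2 promoter. One library of each of the last 3 lay above 5 FPKM, so the limit separates genes whose libraries overlap.

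**Figure D1:**
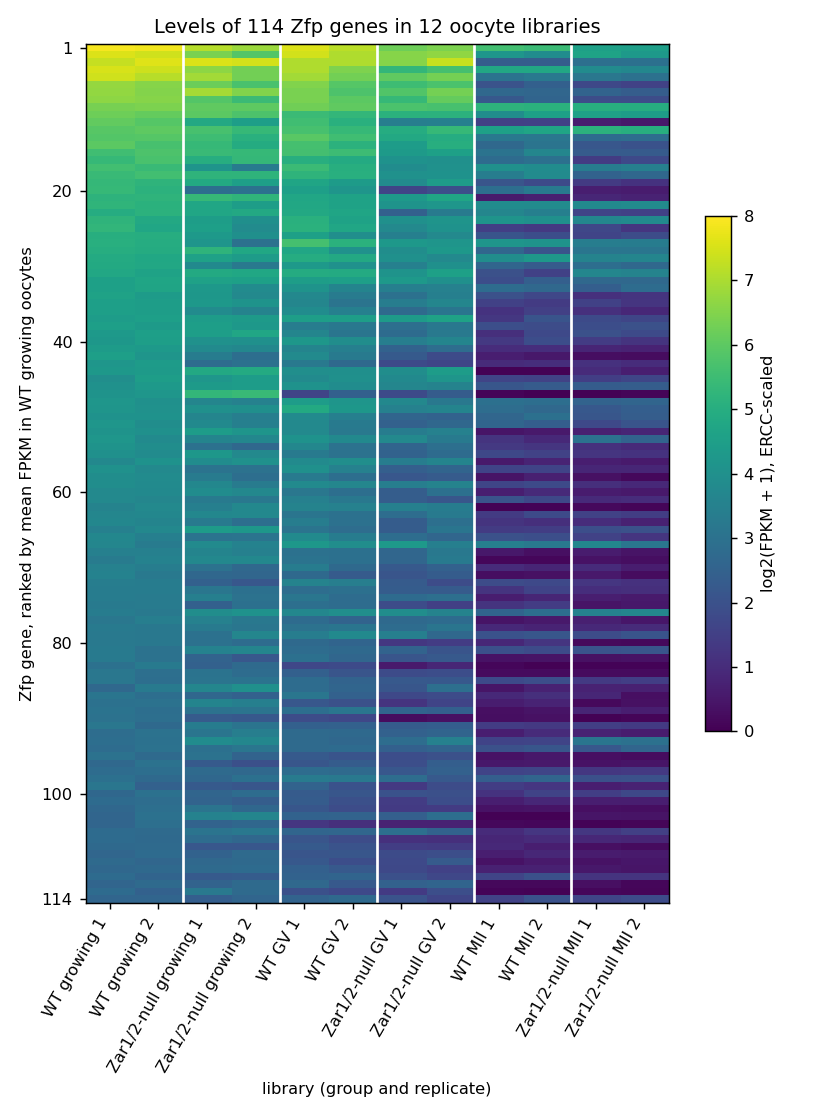
Each row is 1 of the 114 Zfp genes, ranked by mean FPKM in WT growing oocytes, and each column is a library. The colour gives log2(FPKM + 1) of the ERCC-scaled values, and the MII columns of both genotypes are the darkest.

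The genes stood at their lowest in MII oocytes in both genotypes. In WT oocytes the group means of the 114 genes had a median of 14.0 FPKM in growing, 9.95 in GV and 2.05 in MII oocytes. The corresponding medians in Zar1/2-null oocytes were 11.3, 6.39 and 1.46 FPKM. The MII mean was the lowest of the 3 stages in all 114 genes of either genotype. The mean fell at each step in 100 genes in WT and 106 in Zar1/2-null oocytes. At MII, 38 genes in WT (33.3%) and 48 in Zar1/2-null oocytes (42.1%) had a mean under 1 FPKM. The 38 were among the 48. Among all genes kept the shares under 1 FPKM were 49.1% in WT and 44.0% in Zar1/2-null MII oocytes. Replicate libraries differed by a median of 1.04-fold to 1.23-fold per gene within a group. The largest gap between replicates was 2.44-fold, for Zfp735 in Zar1/2-null growing oocytes.

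A second view does not depend on the spike-in, since a factor cancels when the genes are expressed as a share of the FPKM sum of their own library. The 114 genes made up 0.499% and 0.485% of the sum in the WT growing libraries and 0.436% and 0.422% in the Zar1/2-null growing libraries. In GV oocytes the shares were 0.447% and 0.426% in WT and 0.343% and 0.391% in Zar1/2-null. In MII oocytes they were 0.373% and 0.416% in WT and 0.202% and 0.229% in Zar1/2-null. At each stage the WT shares exceeded both Zar1/2-null shares, and the distance was widest at MII. In growing oocytes this is a description, since the WT libraries chose the genes. A share also depends on the other genes of the library. As deposited, the MII sums of the 114 genes were 479 and 504 FPKM in WT and 423 and 404 in Zar1/2-null. The sums of the whole table were 128281 and 121121 against 209875 and 176380 FPKM. Genes with a KRAB box held 0.142% and 0.154% of the WT MII sum and 0.0621% and 0.0721% of the Zar1/2-null MII sum. The 51 without this box held 0.230% and 0.260% in WT MII and 0.139% and 0.157% in Zar1/2-null MII oocytes. In WT oocytes the share of the KRAB genes was lower at MII than at GV in every library, whereas that of the others overlapped between these stages.

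**Figure D2:**
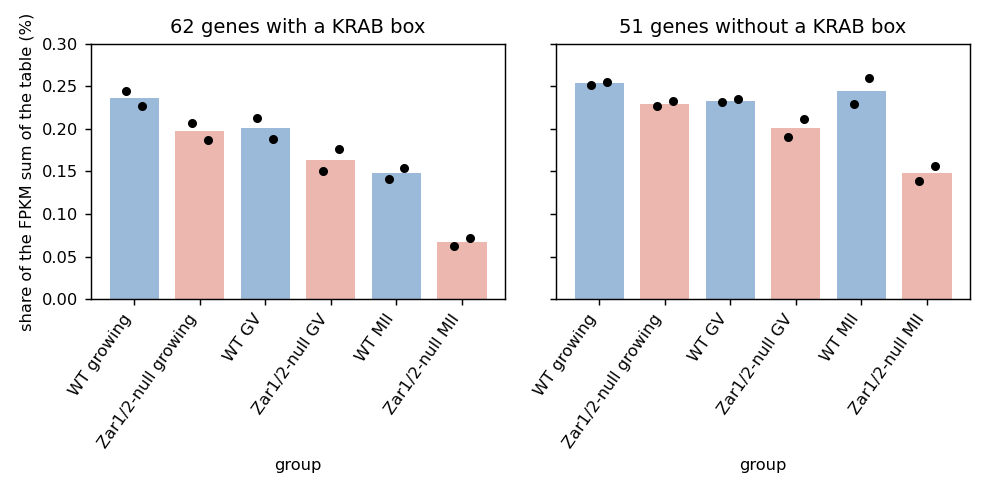
The share of the FPKM sum of a library held by the Zfp genes with a KRAB box (left) and without it (right), in percent. Bars are means of the 2 libraries, shown as points, blue for WT and red for Zar1/2-null oocytes, and in both panels the Zar1/2-null MII bar is the lowest.

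Zar1/2-null and WT growing oocytes were compared first, as a description. In this stage 10 genes were at least 2-fold lower and 1 was at least 2-fold higher in Zar1/2-null oocytes, with libraries that did not overlap. The same was found in 9.11% (lower) and 3.57% (higher) of all genes kept, and in 10.3% and 1.34% of the 7098 genes with at least 5 FPKM in WT growing oocytes. The WT growing libraries chose the genes, and nothing is read from this count. Libraries without overlap, at any fold, were seen for 17 genes above (14.9%) and 63 below WT (55.3%), against 22.4% and 47.4% of all genes kept and 16.4% and 54.7% of those with at least 5 FPKM in WT growing oocytes. Zfp709, a KRAB gene between 74411163 and 74414811 of chromosome 8, had 39.7 and 34.2 FPKM in WT and 6.41 and 6.95 FPKM in Zar1/2-null growing oocytes, 5.53-fold lower in the mean. Zfp616 followed with 47.3 and 42.0 against 16.7 and 9.12 FPKM. Zfp473, which takes part in processing histone mRNA ends, had 17.5 and 20.1 against 6.10 and 6.94 FPKM. The lower ones also included the abundant Zfp277 (188 and 169 against 82.7 and 56.7 FPKM) and Zfp472, Zfp735, Zfp938 and Zfp939 at 2.50-fold to 2.59-fold lower means. Zfp707, a KRAB gene, was the one that was higher, with 16.4 and 17.6 FPKM in WT and 38.7 and 41.6 FPKM in Zar1/2-null growing oocytes. Granulosa and cumulus markers summed to 22.6 and 26.2 FPKM in WT growing and to between 5.91 and 10.7 FPKM in Zar1/2-null growing libraries, and their part in these values was not tested. Cyp19a1 alone had 19.0 and 16.7 FPKM in the first and second WT growing libraries. In the first and second Zar1/2-null growing libraries it had 7.72 and 2.53 FPKM. The count of 10 was 19 without the first Zar1/2-null growing library and 17 without the second WT growing library. With the ERCC factors divided out 6 genes were higher, and 4 with median scaling.

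In fully grown GV oocytes many of the genes were lower without Zar1 and Zar2. The expression of each gene was compared by limma on log2(FPKM + 1), fitted to all 11502 genes over all 12 libraries, and called at a Benjamini-Hochberg adjusted p under 0.05. Of the 114 genes, 60 were lower (52.6%) in Zar1/2-null GV oocytes, against 40.6% of all genes kept and 44.5% of those with at least 5 FPKM in WT growing oocytes. None of them was called higher, while 2.83% of all genes kept and 1.72% of those with at least 5 FPKM were. At an unadjusted p under 0.05, limma gave 1 gene higher and 64 lower. The median log2 fold change was -0.48 over the 114 genes, -0.38 over all genes kept and -0.44 over those with at least 5 FPKM in WT growing oocytes. The count depends on the spike-in. With the ERCC factors divided out 22 genes were lower and 3 higher, against 13.5% lower and 7.19% higher among all genes kept. With libraries scaled to a common median 16 were lower and 7 higher, against 9.32% and 9.73% of all genes kept. The count of 60 was 34 without the first WT GV library.

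The 16 genes called lower at the GV stage under all 3 scalings were Zfp108, Zfp207, Zfp217, Zfp330, Zfp334, Zfp449, Zfp472, Zfp473, Zfp560, Zfp597, Zfp709, Zfp828, Zfp869, Zfp936, Zfp938 and Zfp964. The median of the 114 genes was -0.11 with the spike-in factors divided out and 0.02 with median scaling, and that of all genes -0.03 and 0.07. A test of 2 libraries against 2 for a single gene could not fall below an exact permutation p of 0.333, which is why the spread was taken over all groups. Granulosa and cumulus markers summed to between 13.3 and 15.2 FPKM in WT GV and between 9.40 and 11.3 FPKM in Zar1/2-null GV libraries, and their part in the differences was not tested.

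On the log2(FPKM + 1) scale Zfp709 had the largest difference at the GV stage, with 21.9 and 17.0 FPKM in the WT and 2.09 and 2.75 FPKM in the Zar1/2-null libraries. Its mean was 8.01-fold lower, and its log2 fold change was -2.57 (SE 0.18, adjusted p = 6.76e-06 by limma with Benjamini-Hochberg adjustment). Zfp330, a nucleolar protein, came next with 27.3 and 25.2 against 4.48 and 8.62 FPKM, a log2 fold change of -1.91 (SE 0.22, adjusted p = 1.07e-04 by limma). The libraries of these genes lay far apart between the genotypes. In growing oocytes Zfp330 had been closer between the genotypes, with 29.6 and 34.6 FPKM in WT and 25.8 and 27.4 FPKM in Zar1/2-null libraries. Zfp472, a KRAB gene at 33102759 to 33116178 of chromosome 17, had 45.3 and 32.6 against 9.67 and 10.0 FPKM, a log2 fold change of -1.86 (SE 0.18, adjusted p = 3.42e-05 by limma). Its neighbour Zfp952 had 49.4 and 34.1 against 20.2 and 31.2 FPKM, a smaller difference that also passed (log2 fold change -0.69, adjusted p = 0.0488 by limma).

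Further KRAB genes were lower as well. Zfp938 had 13.3 and 8.62 FPKM in WT and 3.76 and 2.55 FPKM in Zar1/2-null GV oocytes. Zfp560 had 11 and 9.61 against 3.87 and 2.67 FPKM. Zfp597 had 5.68 and 4.94 against 1.44 and 1.67 FPKM. In each, the WT libraries were above both Zar1/2-null libraries, with log2 fold changes between -1.51 and -1.30. In Zfp597, 24.2% of the exonic bases also lay in exons of a non-coding gene on the opposite strand, which these libraries cannot tell apart. Zfp616 had 42.4 and 31.7 against 13.9 and 15.4 FPKM (log2 fold change -1.27, adjusted p = 0.00165 by limma), and under median scaling it was no longer called (adjusted p = 0.0573 by limma).

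**Figure D3:**
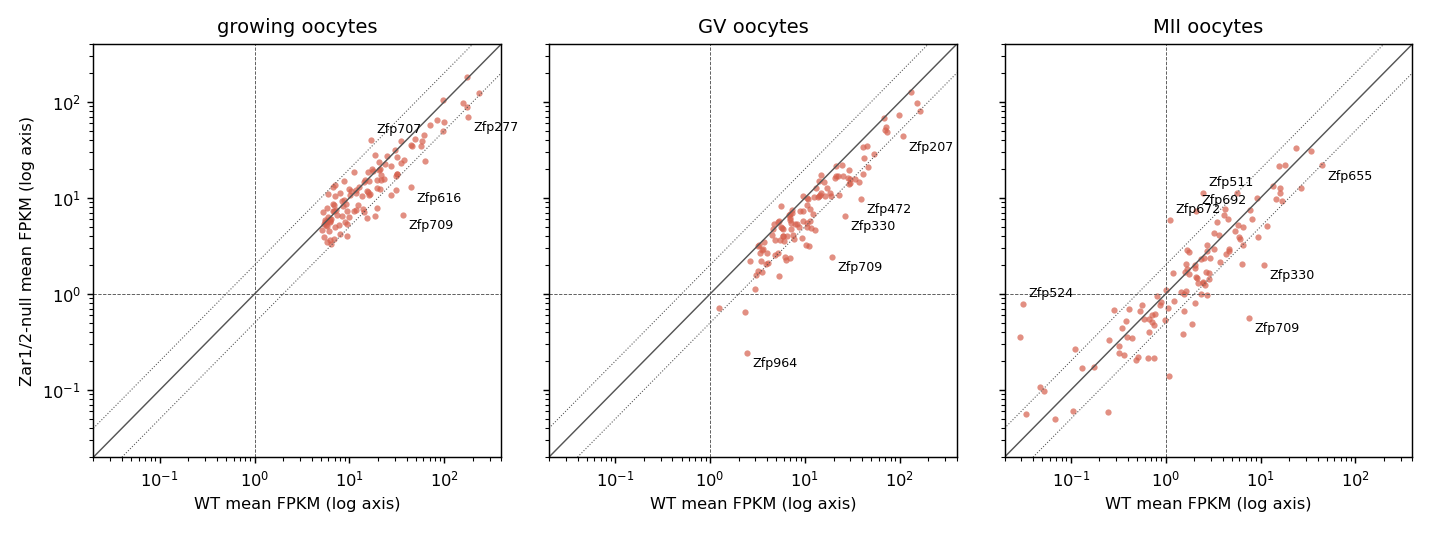
Mean FPKM of each of the 114 Zfp genes in WT (horizontal) and Zar1/2-null oocytes (vertical) at 3 stages, on log axes. The solid line marks equal levels, the dotted lines a 2-fold difference and the dashed lines 1 FPKM, and most GV points lie below the line, with Zfp709 the furthest among genes above 10 FPKM in WT.

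At MII the genes differed in both directions between the genotypes. Of the 114, 23 were lower (20.2%) in Zar1/2-null MII oocytes, against 10.3% of all genes kept and 14.1% of those with at least 5 FPKM in WT growing oocytes. Only 7 were higher (6.14%), against 21.5% and 28.8% of these backgrounds. The median log2 fold change was -0.11 over the 114 genes, 0.06 over all genes kept and 0.11 over those with at least 5 FPKM in WT growing oocytes. All 23 lower genes were also called under both other scalings. With the ERCC factors divided out 54 of the 114 were lower, against 23.4% of all genes kept, and their median was -0.36 (all genes -0.01). With median scaling 61 were lower, against 30.1% of all genes kept, and the median was -0.44 (all genes -0.08). The count of 23 was 15 without the first and 13 without the second Zar1/2-null MII library, the remaining one being assumed to vary like those of the other groups. Adding 1 FPKM understates the change of genes that are low at MII. When 0.1 FPKM was added instead, 36 genes were lower and 13 higher. The shares over all genes were not counted with 0.1 FPKM added, so nothing is read from these counts. Granulosa and cumulus markers, at 4.19 to 4.31 FPKM in WT MII and 6.04 to 7.23 FPKM in Zar1/2-null MII libraries, were not tested for a part in these differences.

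Zfp709 again had the largest difference on the log2(FPKM + 1) scale, with 6.41 and 8.68 FPKM in WT and 0.607 and 0.528 FPKM in Zar1/2-null MII oocytes. Set against a floor of 1 FPKM, its mean was at least 7.55-fold lower (log2 fold change -2.43, SE 0.18, adjusted p = 1.06e-06 by limma with Benjamini-Hochberg adjustment). Zfp330 had 11.7 and 9.93 against 2.12 and 1.90 FPKM, 5.39-fold lower (log2 fold change -1.97, adjusted p = 3.8e-05 by limma). In both genes the WT MII libraries stood above every Zar1/2-null library of the GV stage as well. Zfp212, a KRAB gene, had 6.0 and 6.73 against 1.64 and 2.41 FPKM. Zfp108, in a KRAB run on chromosome 7, had 7.24 and 11.7 against 3.89 and 3.86 FPKM. It shares 12.8% of its stretches of 50 bases with other genes. Zfp828, which has fingers and no KRAB box, had 9.47 and 13.7 against 4.75 and 5.43 FPKM. For these 3, both WT libraries were above both Zar1/2-null libraries, and the log2 fold changes were between -1.29 and -1.03.

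The abundant genes were among those lower at MII. Zfp207 had 26.6 and 26.7 FPKM in WT and 13.4 and 12 FPKM in Zar1/2-null MII oocytes, after 130 and 86.9 against 38.1 and 49.1 FPKM at the GV stage. Zfp655 had 46.4 and 42.9 against 22.5 and 21.2 FPKM at MII. Their libraries did not overlap at either stage, and both genes were called at both (for Zfp207 a log2 fold change of -1.28 at GV and -1.02 at MII, for Zfp655 -1.03 at GV and a 2.04-fold lower mean at MII). In all, 20 of the 23 genes lower at MII (87.0%) were lower at the GV stage too, which is 33.3% of the 60 lower there. Of all 114 genes 52.6% were lower at GV. The same overlap was not counted over all genes kept, so nothing is read from it.

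The 7 genes higher in Zar1/2-null MII oocytes were led, on the log2(FPKM + 1) scale, by Zfp511, a gene of chromosome 7 (147222290 to 147226504) with 3 fingers and no KRAB box. It had 2.98 and 1.95 FPKM in WT and 11.7 and 10.8 FPKM in Zar1/2-null MII oocytes, 4.57-fold higher (log2 fold change 1.84, SE 0.18, adjusted p = 1.45e-05 by limma with Benjamini-Hochberg adjustment). Zfp672 had 1.33 and 0.906 against 6.95 and 4.80 FPKM, 5.27-fold higher (log2 fold change 1.69, SE 0.22, adjusted p = 1.36e-04 by limma). Both Zar1/2-null libraries of either gene lay above both WT libraries. Zfp692, next to Zfp672 on chromosome 11 and on the opposite strand, had 2.08 and 2.12 against 7.71 and 6.91 FPKM, 3.48-fold higher (log2 fold change 1.42, adjusted p = 1.25e-04 by limma). In mm9 Zfp692 spans 58120571 to 58128129 and Zfp672 spans 58128616 to 58136848, so their 3′ ends face each other without overlap. Zfp692 had also been higher in Zar1/2-null growing oocytes, where it had 6.45 and 6.96 against 13.7 and 12 FPKM.

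Zfp513 had 4.97 and 6.46 FPKM in WT and 10.6 and 11.9 FPKM in Zar1/2-null MII oocytes (log2 fold change 0.88, adjusted p = 0.00218 by limma). Zfp51, the only KRAB gene of the 7, had 5.18 and 3.21 against 7.68 and 7.57 FPKM, and Zfp592 had 2.72 and 4.30 against 5.56 and 5.57 FPKM. Zfp51 was not called under median scaling (adjusted p = 0.132 by limma), and Zfp592 was called under neither other scaling (adjusted p = 0.119 with the ERCC factors divided out and 0.154 with median scaling, by limma). Zfp51 was also lost without the second WT MII library (log2 fold change 0.48) or either Zar1/2-null MII library, and Zfp592 without the first WT MII library (0.31) or either Zar1/2-null MII library. Zfp524, which is named here after its values were seen, had 0.0243 and 0.0385 against 0.988 and 0.593 FPKM, so all 4 libraries were under 1 FPKM and no fold is given. Zfp511, Zfp513, Zfp524, Zfp672 and Zfp692 were called higher under all 3 scalings. Without the first Zar1/2-null MII library 4 genes were called higher.

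**Figure D4:**
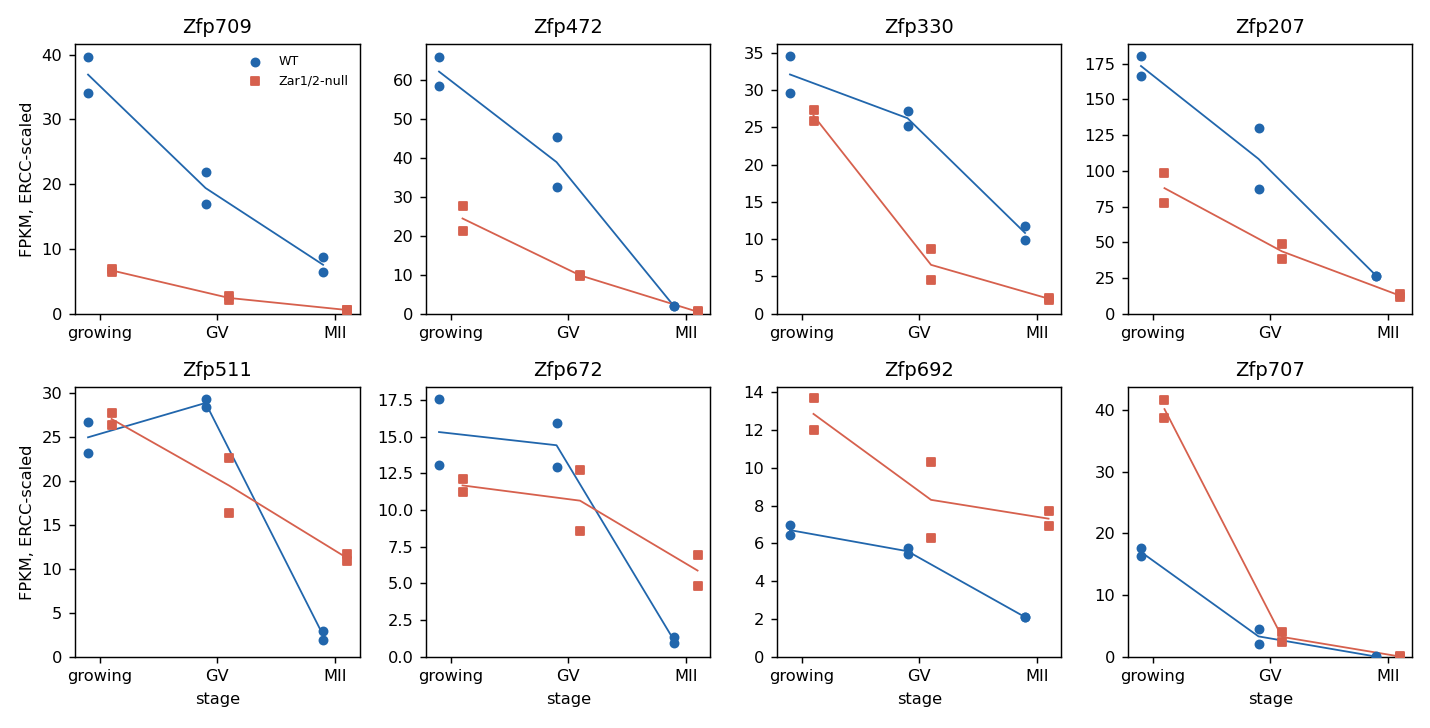
ERCC-scaled FPKM of 8 Zfp genes in each library at 3 stages, blue circles for WT and red squares for Zar1/2-null oocytes, with lines through the means of the 2 libraries. Zfp709, Zfp472, Zfp330 and Zfp207 lie lower in Zar1/2-null GV and MII oocytes, Zfp511, Zfp672 and Zfp692 lie higher in Zar1/2-null MII oocytes, and Zfp707 is apart in growing oocytes.

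From GV to MII the whole group was lower in WT oocytes under the ERCC scaling. A part of poly(A) tail length in this step was not tested. All 114 genes were called lower at MII than at GV (100%), as were 93.4% of all genes kept and 97.8% of those with at least 5 FPKM in WT growing oocytes. No member was called higher, nor at an unadjusted p under 0.05 by limma, and 0.104% and 0.0141% of the backgrounds were. The median log2 fold change was -1.77 over the 114 genes, -1.28 over all genes kept and -1.85 over those with at least 5 FPKM in WT growing oocytes. The counts, and with median scaling the sign of the median, change with the scaling. With the factors divided out 62 genes were lower and 15 higher, against 47.6% and 19.7% of all genes kept. With median scaling 34 were lower and 45 higher, against 31.3% and 41.8% of all genes kept. The medians were -0.68 and 0.12 for the 114 genes and -0.43 and 0.12 for all genes.

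On the log2(FPKM + 1) scale Zfp296 fell the most, from 131 and 130 FPKM in WT GV to 4.11 and 4.12 FPKM in WT MII oocytes, 31.7-fold in the mean (log2 fold change -4.69, SE 0.22, adjusted p = 3.75e-09 by limma with Benjamini-Hochberg adjustment). Zfp61, a KRAB gene, fell from 25.8 and 23.2 to 0.501 and 0.639 FPKM, at least 24.5-fold. Zfp524 fell from 14.5 and 14.9 to 0.0243 and 0.0385 FPKM, at least 14.7-fold. For genes with an MII mean under 1 FPKM, such as these last, the fold is a lower bound and cannot be ranked against that of Zfp296. In these 3 genes every MII library was far below every GV library. Zfp958 and Zfp951, KRAB genes of high level in growing oocytes, fell 19.4-fold and 16.9-fold, and Zfp472 and Zfp345 20.4-fold and 17.7-fold. Zfp593, a factor of ribosome assembly, fell from 11.1 and 10.5 to 0.0371 and 0.0587 FPKM, at least 10.8-fold, and 77.9% of its exonic bases lie in exons of a non-coding gene on the opposite strand. These 8 were also called lower with median scaling.

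At the other end, 8 genes fell by 0.71 to 0.82 on the log2 scale and had the opposite sign under both other scalings. Zfp69 had 5.80 and 5.91 FPKM in WT GV and 2.98 and 3.42 FPKM in WT MII oocytes. Zfp664 had 30.3 and 27.6 against 14.3 and 18.2 FPKM, and Zfp873 had 33.0 and 23.5 against 16.5 and 15.3 FPKM. Zfp607, Zfp106, Zfp91, Zfp148 and Zfp74 completed this set. With the ERCC scaling the GV libraries of each lay above its MII libraries, while with the factors divided out the log2 fold changes were 0.50 to 0.94. Zfp607 was not called without the first WT GV library (log2 fold change -0.57) or without either WT MII library (-0.82 and -0.63), and it shares 14.0% of its stretches of 50 bases with other genes.

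In Zar1/2-null oocytes the same step lowered 99 of the 114 genes (86.8%), against 68.7% of all genes kept and 76.7% of those with at least 5 FPKM in WT growing oocytes. None was higher, nor at an unadjusted p under 0.05 by limma, against 0.209% and 0.197%. The median was -1.46 over the 114 genes, -0.72 over all genes kept and -1.11 over those with at least 5 FPKM in WT growing oocytes. With median scaling the 114 genes had a median of -0.44 and all genes 0.12, and 59 genes were lower and 28 higher, against 27.2% and 38.5% of all genes kept.

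Whether the GV to MII step differed by genotype was tested with an interaction term, and its differences are on the log2(FPKM + 1) scale. On this scale 20 of the 114 genes had a smaller fall in Zar1/2-null than in WT oocytes (17.5%), against 33.9% of all genes kept and 42.3% of those with at least 5 FPKM in WT growing oocytes. None was called with a larger fall, nor at an unadjusted p under 0.05 by limma, while 0.643% and 0.507% of the backgrounds were. The sign of this comparison depends on the scaling. The median of the 114 genes was 0.34 as deposited, -0.29 with the factors divided out and -0.48 with median scaling, and that of all genes 0.48, 0.03 and -0.15. Over the genes with at least 5 FPKM in WT growing oocytes it was 0.60 as deposited. With the factors divided out 5 genes had a smaller and 13 a larger fall, against 15.1% and 6.46% of all genes kept, and with median scaling 3 and 35, against 13.5% and 15.7%. The count of 20 was 8 without the first WT GV library, 11 without the first WT MII library and 9 without the first Zar1/2-null MII library.

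Zfp511 and Zfp672 were called in this test under all 3 scalings. Zfp511 went from 29.3 and 28.4 to 2.98 and 1.95 FPKM in WT, 11.7-fold in the mean, and from 16.3 and 22.6 to 11.7 and 10.8 FPKM in Zar1/2-null oocytes, 1.73-fold (log2 difference 2.40, SE 0.26, adjusted p = 4.23e-05 by limma with Benjamini-Hochberg adjustment). Zfp672 went from 15.9 and 12.9 to 1.33 and 0.906 FPKM in WT and from 12.7 and 8.55 to 6.95 and 4.80 FPKM in Zar1/2-null oocytes (log2 difference 2.11, SE 0.32, adjusted p = 5.05e-04 by limma). Of the 20 genes, 6 were higher at MII in Zar1/2-null oocytes, and 14 had been lower at the GV stage. Of all 114 genes 6.14% were higher at MII and 52.6% lower at GV. The interaction is computed from the same libraries as these calls, so nothing is read from the 6 and the 14. In 7 of the 20 the Zar1/2-null MII mean was under 1 FPKM, where the added 1 FPKM shrinks a fall, and a smaller fall as a ratio is not shown for them. One of the 7 was Zfp472, which fell 20.4-fold in WT and at least 9.84-fold in Zar1/2-null oocytes, and another was Zfp160. In the other 5 (Zfp217, Zfp839, Zfp869, Zfp938 and Zfp964) both MII means were under 1 FPKM. Zfp964 had 2.64 and 2.29 FPKM in WT GV and 0.211 and 0.276 FPKM in Zar1/2-null GV oocytes, and at most 0.271 FPKM in any MII library.

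**Figure D5:**
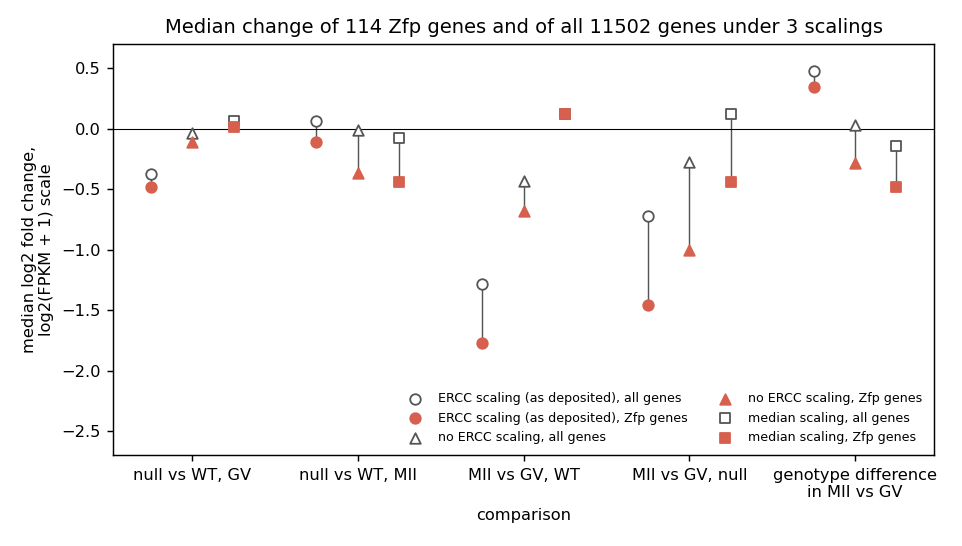
Median log2 fold change of the 114 Zfp genes (red) and of all 11502 genes kept (open) for 5 comparisons, with the ERCC scaling as deposited (circles), without it (triangles) and with median scaling (squares). For null against WT at MII, for MII against GV in Zar1/2-null oocytes and for the genotype difference, the Zfp genes lie below all genes under each scaling.

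The last stages of growth were compared too. Between WT growing and WT GV oocytes, as a description, 11 genes were at least 2-fold lower and none was at least 2-fold higher with libraries that did not overlap. The backgrounds were 6.45% and 0.982% of all genes kept and 6.65% and 0.352% of those with at least 5 FPKM in WT growing oocytes, and nothing is read from the count. Zfp707 went from 16.4 and 17.6 to 2.15 and 4.47 FPKM, Zfp94 from 5.11 and 6.63 to 1.41 and 1.10 FPKM and Zfp869 from 6.94 and 8.61 to 2.28 and 2.44 FPKM. The count was 27 without the first WT GV library and 6 without the second. In Zar1/2-null oocytes this step could be tested, and 78 of the 114 genes were lower at GV than in growing oocytes (68.4%), against 55.9% of all genes kept and 58.6% of those with at least 5 FPKM in WT growing oocytes. None was called higher and 1 was at an unadjusted p under 0.05 by limma, against 4.76% and 3.52%. With the factors divided out 29 were lower and 6 higher, against 21.3% and 14.3% of all genes kept, and with median scaling 20 were lower and 13 higher, against 14.2% and 19.3%.

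Zfp707 gave the largest step in Zar1/2-null oocytes on the log2(FPKM + 1) scale, from 38.7 and 41.6 FPKM in growing to 2.47 and 3.98 FPKM in GV oocytes (log2 fold change -3.31, SE 0.24, adjusted p = 2.6e-06 by limma with Benjamini-Hochberg adjustment). The genotypes, apart in growing oocytes, overlapped at the GV stage for this gene (log2 fold change 0.00, 95% confidence interval -0.51 to 0.52). Zfp330 fell from 25.8 and 27.4 to 4.48 and 8.62 FPKM in Zar1/2-null oocytes (log2 fold change -1.93, adjusted p = 4.67e-05 by limma), a step that went from 29.6 and 34.6 to 27.3 and 25.2 FPKM in WT. Zfp277 went the other way, with 82.7 and 56.7 FPKM in Zar1/2-null growing and 92.8 and 101 FPKM in Zar1/2-null GV oocytes, a difference that did not pass the test (log2 fold change 0.49, adjusted p = 0.0719 by limma).

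The KRAB genes and the others were counted side by side under the ERCC scaling only, with no test between them. At the GV stage 36 of the 62 KRAB genes (58.1%) and 24 of the 51 without the box (47.1%) were lower in Zar1/2-null oocytes, with medians of -0.56 and -0.42 on the log2 scale. The shares lower there were 40.6% of all genes kept and 44.5% of those with at least 5 FPKM in WT growing oocytes. At MII, 13 (21.0%) and 9 (17.6%) were lower, against 10.3% and 14.1% of these backgrounds. At this stage 1 KRAB gene and 6 of the others were higher, against 21.5% and 28.8%. The median of the KRAB genes at MII was -0.23 and that of the others -0.03. From WT GV to WT MII their medians were -1.96 and -1.60. In the interaction, 8 KRAB genes and 12 of the others had a smaller fall in Zar1/2-null oocytes on the log2(FPKM + 1) scale, against 33.9% of all genes kept and 42.3% of those with at least 5 FPKM.

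Genes with roles in RNA, ribosomes or the cytoplasm formed a list of 15, of which 10 belonged to the 114. Of these 10, 8 were lower in Zar1/2-null GV oocytes and 3 at MII (Zfp106, Zfp207 and Zfp330), and none was higher. Of the 8, Zfp207, Zfp330 and Zfp473 were also called lower at GV under both other scalings. Zfp106, Zfp277, Zfp706, Zfp830 and Zfp91 were called there under neither. The shares lower were 40.6% of all genes kept at GV and 10.3% at MII, or 44.5% and 14.1% of those with at least 5 FPKM in WT growing oocytes. Zfp473 had 8.31 and 5.66 against 2.48 and 2.21 FPKM at GV (log2 fold change -1.24, adjusted p = 2.61e-04 by limma). Zfp706, which encodes a protein of 76 residues, had 75.8 and 65.0 against 52.7 and 50.2 FPKM at GV and remained abundant at MII, with 34.9 and 33.8 against 31.4 and 30.8 FPKM. At MII the difference in Zfp706 did not pass (log2 fold change -0.14, 95% confidence interval -0.44 to 0.16). Zfp830, a splicing-associated protein, had 18.0 and 14.3 against 9.70 and 11.5 FPKM at GV (log2 fold change -0.56, adjusted p = 0.042 by limma). The 2 of the 10 that did not pass at GV were Zfp598, the ubiquitin ligase that senses collided ribosomes (9.42 and 13.0 against 9.95 and 5.46 FPKM), and Zfp593 (11.1 and 10.5 against 10.3 and 9.27 FPKM).

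Of 22 listed sequence-specific or chromatin-linked factors outside the KRAB family, 7 belonged to the 114. At GV, 4 were lower in Zar1/2-null oocytes (57.1%), against 40.6% of all genes kept and 44.5% of those with at least 5 FPKM in WT growing oocytes. Zfp143, an activator bound at many promoters, had 13.9 and 10.3 against 5.87 and 7.56 FPKM, and Zfp217, a partner of the corepressor CtBP, had 3.29 and 2.63 against 1.16 and 1.11 FPKM. The libraries of both genes did not overlap (log2 fold change -0.76 and -0.89). Zfp148 (6.08 and 4.83 against 3.66 and 3.57 FPKM) and Zfp238 (6.16 and 5.68 against 4.81 and 3.26 FPKM) were the others. Zfp217 was also called lower at GV under both other scalings, and Zfp143, Zfp148 and Zfp238 under neither. Zfp296, at 131 and 130 against 92.1 and 158 FPKM, did not pass (log2 fold change -0.11, 95% confidence interval -0.60 to 0.37). Zfp410, which activates the chromatin remodeller gene Chd4, had 19.9 and 17.6 FPKM in Zar1/2-null and 10.2 and 12.3 FPKM in WT growing oocytes, and 4.02 and 7.63 against 7.51 and 6.25 FPKM at GV. Only Zfp592 was higher and Zfp148 lower among the 7 at MII.

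Among 10 listed KRAB or SCAN genes with a described target, Zfp932 and Zfp961 belonged to the 114. Of these Zfp961 passed at GV (log2 fold change -0.98, adjusted p = 0.0021 by limma). There it had 28.1 and 17.8 FPKM in WT and 10.5 and 11.1 FPKM in Zar1/2-null oocytes. Zfp961 was also called with the ERCC factors divided out and not with median scaling. It lies close to Zfp709 on chromosome 8. Zfp932, whose reads are partly shared with Gm15446, had 117 and 78.0 against 65.3 and 78.9 FPKM at GV and 7.22 and 8.42 against 8.0 and 6.87 FPKM at MII, and was called at neither stage (adjusted p = 0.18 and 0.904 by limma).

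The partners through which KRAB proteins act were examined from a list of 14 genes, of which 13 passed the filter and Chd3 did not. At GV 8 of the 13 were lower in Zar1/2-null oocytes (61.5%) and none higher, against 40.6% lower and 2.83% higher among all genes kept and 44.5% and 1.72% of those with at least 5 FPKM in WT growing oocytes. Trim28, the KRAB corepressor, had 26.8 and 33.1 against 24.7 and 18.9 FPKM and was not called (log2 fold change -0.44, adjusted p = 0.0981 by limma). Setdb1, the methyltransferase that Trim28 recruits, had 35.7 and 34.4 against 25 and 22.2 FPKM (log2 fold change -0.55, adjusted p = 0.0194 by limma). Its cofactor Atf7ip had 21.4 and 21.0 against 10.2 and 8.59 FPKM. As deposited, the GV libraries of Setdb1 and of Atf7ip did not overlap between the genotypes. The partners were not tested under the other scalings, on which the calls at GV depend. Morc3, a nuclear ATPase that silences retroelements, had 11.3 and 8.79 against 1.66 and 2.05 FPKM at GV and 4.61 and 5.42 against 0.806 and 1.15 FPKM at MII (log2 fold change -1.94 and -1.61). At MII 3 of the 13 were lower (Setdb1, Hdac2 and Morc3) and 2 were higher, against 10.3% and 21.5% of all genes kept. These were Uhrf1, which directs DNA methylation, with 23.7 and 26.5 against 47.7 and 48.9 FPKM, and the heterochromatin protein gene Cbx3, with 0.151 and 0.0650 against 3.61 and 1.47 FPKM.

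Neighbouring genes were also compared. In the run of Zfp109, Zfp108, Zfp61 and Zfp94 on chromosome 7, 2 of 4 were lower in Zar1/2-null GV oocytes, with log2 fold changes from -1.10 to -0.18. In the run of Zfp229 to Zfp946 on chromosome 17, 3 of 6 were lower and the changes ran from -1.09 to 0.15. All 3 genes of each of the runs Zfp120, Zfp442 and Zfp345 on chromosome 2 and Zfp560, Zfp426 and Zfp846 on chromosome 9 were lower at GV. No gene was lower there in the run of Zfp420, Zfp74 and Zfp260 or in the pairs Zfp51 with Zfp53 and Zfp692 with Zfp672. The shares lower at GV were 52.6% of the 114 genes and 40.6% of all genes kept. Among genes with at least 5 FPKM in WT growing oocytes the share was 44.5%. Nothing is read from single runs. The pair Zfp692 and Zfp672 was the only run in which more than 1 gene was higher at MII.

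The genes whose pattern over the 12 libraries was most like that of Zfp709 were Atp6v1b2 (Pearson r = 0.990), Zc3h6 (0.990) and Atf2 (0.989), by log2(FPKM + 1) among the 11502 genes kept. Atp6v1b2, a subunit of the vacuolar proton pump, had 109 and 116 FPKM in WT growing and 37.0 and 30.5 FPKM in Zar1/2-null growing oocytes. Zfp511 was most like Dctn3 (0.990), Trappc6b (0.990) and Rplp0 (0.989), a ribosomal protein gene. These correlations describe the 12 libraries, which share stages, genotypes and scaling factors.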

How the data were processed

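Mouse oocytes, 10 per library, were profiled by Smart-seq2 in 12 libraries, 2 for each of 6 groups. The authors trimmed reads to 50 bases, mapped them to mm9 with TopHat2 2.1.1, obtained FPKM of UCSC gene models from uniquely mapped reads with Cufflinks 2.2.1 and multiplied each library by its ERCC factor, as the deposited table and the study's methods show. No counts were used here, so depth per value is unknown and no counting interval is given.

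A gene was kept where any library reached 1 FPKM (11502 genes). limma 3.58.1 (R 4.3.3) was fitted to log2(FPKM + 1) over all 12 libraries, 1 term per group, with the eBayes trend on, and Benjamini-Hochberg adjustment ran over these genes separately for each contrast. The fit was checked on simulated data. Folds are ratios of group means set to at least 1 FPKM. Contrasts with WT growing oocytes, which chose the genes, were given as a description, with a 2-fold limit and libraries that did not overlap. The ERCC factors were recovered from the digits of the values. Domain classes and repeated stretches of 50 bases came from coding sequences of the NCBIM37 (mm9) GENCODE annotation, translated and scanned with Python 3.11.15 and Biopython 1.88, since no table of proteins was used here. A KRAB box needed 12 matches of 22 scored positions.

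Genes were named by rule: the 5 most abundant and 3 on either side of the threshold, up to 8 in each direction in each comparison (at GV and MII, where the higher mean reached 5 FPKM and libraries did not overlap), the members of the role lists and the neighbours. The members, lists and tests were chosen with earlier results of these data known. Alternatives were other scalings, pseudocounts, filters, libraries in the fit, no trend, the replicate number as a block and leaving out each library.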

Additional observations from a re-analysis of the deposited data

Results flagged for a closer look

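The change from GV to MII differed between the genotypes, by the interaction term of limma with Benjamini-Hochberg adjustment, in 20 of the 114 Zfp genes (17.5%). All 20 had a smaller fall in Zar1/2-null oocytes on the log2(FPKM + 1) scale. That was a lower share than the 33.9% of all genes kept and the 42.3% of those with at least 5 FPKM in WT growing oocytes. The log2 difference (Zar1/2-null minus WT) was 2.40 for Zfp511, 2.11 for Zfp672, 1.30 for Zfp473, 1.24 for Zfp964, 1.21 for Zfp938 and 1.06 for Zfp345. In 7 of the 20 (Zfp160, Zfp217, Zfp472, Zfp839, Zfp869, Zfp938 and Zfp964) the Zar1/2-null MII mean was under 1 FPKM. A smaller fall as a ratio is not shown for these 7. In Zfp964 and Zfp938 both MII means were under 1 FPKM, and Zfp345 shares 34.1% of its stretches of 50 bases with other genes. Zfp938 lost its call without the first WT GV library (log2 difference 0.92), the second WT MII library (1.13), the second Zar1/2-null GV library (0.99) or the first Zar1/2-null MII library (1.18), and Zfp345 without any one of 6 libraries, with values from 0.81 to 1.20. With the ERCC factors divided out 4 of the 20 were still called (Zfp473, Zfp511, Zfp672 and Zfp964), and with median scaling Zfp511 and Zfp672.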

How the results depend on the processing

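Among the counts of Zfp genes, those that moved most did so with the scaling. With the ERCC factors divided out, 19.5% of all genes kept were higher at MII than GV in Zar1/2-null oocytes. The shares over all genes for the other tested counts stand above. For the descriptions with growing oocytes they were not counted under the other scalings. With the ERCC factors divided out, 3 genes were higher and 22 lower in Zar1/2-null GV oocytes, 54 were lower at MII, 15 were higher and 62 lower at MII than GV in WT, 12 were higher in that step in Zar1/2-null oocytes, 5 had a smaller and 13 a larger fall in Zar1/2-null than WT oocytes, and 6 were higher and 29 lower in Zar1/2-null GV than growing oocytes. With median scaling these counts were 7 and 16 at GV, 61 lower at MII, 45 and 34 in WT, 28 higher and 59 lower in Zar1/2-null oocytes, 3 and 35 for the genotype difference and 13 and 20 for the last step. In the descriptions with growing oocytes, 6 genes (factors divided out) and 4 (median scaling) were at least 2-fold higher in Zar1/2-null oocytes, and 1 gene was higher (factors divided out) and 5 lower (under either) in WT GV oocytes.

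Zfp69, Zfp607, Zfp106, Zfp873, Zfp91, Zfp664, Zfp148 and Zfp74, lower at MII than GV in WT, turned to log2 fold changes of 0.80, 0.94, 0.68, 0.92, 0.79, 0.89, 0.66 and 0.50 with the factors divided out and of 1.56, 1.81, 1.41, 1.82, 1.60, 1.80, 1.40 and 1.18 with median scaling. Adding 0.1 FPKM gave 13 higher and 36 lower at MII and 1 with a larger fall in Zar1/2-null oocytes. With no filter 8 had a smaller fall. When the filter was a mean of 5 FPKM over all libraries, which tests fewer genes, 36 were lower at GV and 49 lower in Zar1/2-null GV than growing oocytes. Fitting only the libraries compared gave 37 lower at GV and 11 higher at MII. Shares over all genes were not counted for the added 0.1 FPKM, the filters or this fit. Nor were they counted for the replicate block or for leaving out a library, so nothing is read from those counts.

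Leaving out 1 library at a time gave 0 to 1 higher (1 without the first Zar1/2-null GV library) and 34 to 58 lower at GV, 4 to 9 higher and 13 to 26 lower at MII, 0 higher and 113 to 114 lower at MII than GV in WT, 0 higher and 95 to 100 lower in Zar1/2-null oocytes, 8 to 25 with a smaller and 0 with a larger fall, and 0 to 3 higher (3 without the first Zar1/2-null growing library) and 57 to 77 lower in Zar1/2-null GV than growing oocytes. The descriptions ranged from 1 to 3 higher and 9 to 19 lower in Zar1/2-null growing and from 0 higher and 6 to 27 lower in WT GV oocytes.

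Nothing in the labels ties same-numbered libraries together. The scaling may, since both WT growing libraries had a factor of 1 though the study lists different spike-in shares for them. The correlations of the deviations of same-numbered libraries lay between -0.117 and 0.163 over 15 pairs of groups. Of these, 13 were above 0 and 4 over 0.1, so pairing was neither shown nor taken as the main design. With the replicate number as a block, 0 genes were higher and 59 lower at GV, 7 higher and 25 lower at MII, and 1 was higher and 80 lower in Zar1/2-null GV than growing oocytes. A crossed block at GV, added after seeing the data, gave 1 higher and 63 lower. Of the values of single named genes, 919 kept direction and call, 44 were no longer called, 15 moved and 16 changed sign. The cause of these changes was not tested.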
